A study of Rattus norvegicus with 31 samples.

Results

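The genes described here are the RNA-binding motif genes (Rbm followed by a number), the SR genes (Srsf), the hnRNP genes (Hnrnp, and Hnrpd, now called Hnrnpd) and the SF3 genes (Sf3a and Sf3b) on a rat expression array. Probes were taken by gene name: every probe whose name in the scanner files begins that way was included. The families themselves were chosen with earlier results of these data known, so the shares below are not those of a set picked blind. This gave 71 of the 34235 names on the array, read by 129 of its 41012 probes. There were 57 Rbm probes for 34 genes, 16 SR probes for 9, 43 hnRNP probes for 19 and 13 SF3 probes for 9. Of the 129, 122 probes for 67 genes were bright enough to be tested, and 119 were well above background on every array. The 7 left out were dim probes of Hnrnpll, Rbm20, Rbm24, Rbm44, Rbm46, Rbm47 and Srsf7.

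RNA came from PBMC, the mononuclear cells of blood, which are mostly lymphocytes with some monocytes. The donors were rats whose dams had been underfed in pregnancy or not. Of 16 mated rats, some had their calories cut by 20% on days 1 to 12 of pregnancy. Their pups either suckled without a supplement (CR, 11 samples) or also received leptin, a hormone of fat tissue, until postnatal day 21 (CR-L, 13 samples), in doses that went from 1.0 to 43.8 ng, 5 times the leptin taken in with milk. The third group is titled WT (7 samples) and was taken to be the offspring of the unrestricted dams that the protocol calls controls. All had 4 months of chow before blood was drawn. The labels give no strain, and no sex or litter for a sample. There were 31 samples and no more than 16 litters, so if the samples are separate animals littermates are among them, and p-values over samples may be too small.

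Pre-mRNA splicing is carried out by the spliceosome, and these families supply parts of it and steer it. The SF3a and SF3b complexes belong to the U2 particle that recognises the branch point of an intron. SR proteins mostly bind exons and favour their inclusion, while hnRNP proteins coat nascent RNA and often act against inclusion. Many Rbm proteins adjust the same choices at particular exons. Many SR and hnRNP genes are known to limit their own messages by splicing them into forms that do not make protein, so probes in different stretches of such a gene can report different transcripts.

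The stretches of gene that the probes read matter for several results below, so the middle 30 bases of each 60-base probe are given for the genes whose probes moved unequally, and for the probes of Rbm12 and Srsf9. All are written 5′ to 3′ as the files give them, in lower case, and positions are on the rat build rn4 used by the files.
Rbm39 A_44_P160113: acttcagcgtgatgaataaatgcccatcta
Rbm39 A_43_P10831: aaattcaagacgttccaaaggaatcgccta
Rbm39 A_44_P136911: cagaatacacttttggagtgtgaaaagtct
Srsf5 A_44_P251692: ctatctaacaacttctcttccagtagtctt
Srsf5 A_44_P515521: cttaaagaatgctattgagaaactttctgg
Srsf5 A_44_P346491: ttgtatataaaagcttagtttgagttttcc
Rbm5 A_42_P479312: tgtacagaattttggaagattttcagtcta
Rbm5 A_44_P449108: tcccgtctatatctgaatgctgtctctacg
Srsf10 A_44_P808337: aaatgacttgtcttcaactgttagctagct
Srsf10 A_44_P408011: tttgattataactataggagatcttacagt
Hnrnpf A_44_P177801: gagagacctcagctattgtctctcaggaat
Hnrnpf A_44_P540637: aattgagacacaatactaatactgtaggaa
Rbm12 A_44_P250203: cagtagagaccgtttgtaatactcgatcat
Rbm12 A_44_P763262: gcgaactcaaactcctttttgctcaattct
Rbm12 A_44_P144015: acacacttcagaactatttttgggcatctt
Srsf9 A_44_P173048: ctacattccagatcgataacttagtgtctt

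The files list up to 4 transcript records for each probe, and these differ within a gene. The Rbm39 probe A_44_P160113 (chr3:146586491-146586550, minus strand) was listed with 4 predicted RefSeq transcripts and no curated one, whereas A_43_P10831 (chr3:146571193-146571252) and A_44_P136911 (chr3:146554913-146554972) were both listed with the curated transcript NM_001013207, from its bases 811 and 2219 on. The Srsf5 probe A_44_P251692 (chr6:104731452-104731511, plus strand) was listed with 1 RefSeq record, XR_593112, a predicted transcript that codes for no protein. Its neighbours A_44_P515521 (chr6:104731982-104732041) and A_44_P346491 (chr6:104732846-104732905) were listed with 3 curated messages. The Srsf10 probe A_44_P808337 (chr5:154651200-154651259, plus strand) was listed with 2 predicted transcripts, and A_44_P408011 (chr5:154644783-154645171) with the curated NM_001025738. The Rbm5 probe A_42_P479312 (chr8:112995544-112995603, minus strand) was listed with 2 predicted transcripts, and A_44_P449108 (chr8:113014985-113015044) with cDNA clones and no RefSeq record. Both Hnrnpf probes were listed with the same 4 curated transcripts, from bases 1060 and 1985 of NM_022397 on. In all, 27 member probes lie on a genome span longer than the probe, as a probe across a splice junction would. Exon and untranslated region borders on rn4 were not used here.

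Each array held 1 sample in red and a pool of samples in green, and every value below is the log2 ratio of the sample over that pool, so it shows differences between groups and not how abundant a message is. One array stood apart in brightness: on WT replicate 6 the median red signal was 235 and 83.6% of spots were clear of background in red. On the other 30 arrays the median was from 69.8 to 93.9, with 57.5% to 65% of spots clear. No member probe was saturated. T cell markers fitted the label PBMC (15 of 15 with a probe well above background on all 31 arrays), as did B cell (10 of 10), NK (11 of 11) and monocyte markers (10 of 11), but erythroid markers (11 of 11), platelet markers (9 of 11) and granulocyte markers (7 of 12) were also present. In a mixed sample, fewer cells of a type and less RNA per cell cannot be told apart.

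Against WT, member probes passed the test in both directions, mostly by small steps. In CR-L, 20 of 122 passed (16.4%), while 3.47% of all 26728 probes tested did (limma, adjusted p under 0.05). Of these 9 were higher (7.38%, against 2.03% of all probes) and 11 lower (9.02%, against 1.44%). Among probes well above background on every array the shares were 16.8% and 4.36%. In CR, 5 of 122 passed (4.1%), against 0.479% of all probes, or 0.607% of those above background on every array. There 4 were higher (3.28%, against 0.374%) and 1 lower (0.82%, against 0.105%). The 20 probes stand for 14 genes, 6 with a probe that rose and 8 with a probe that fell, and for no gene did probes pass in opposite directions. Fold differences among them ran from 1.13 to 1.38 in this fit, and their size changed with the processing. All 5 probes called in CR were also called in CR-L on the same side, and all 20 called in CR-L had the same sign in CR, but both comparisons use the same 7 WT arrays. Without WT replicate 6, the bright array, 12 of the 20 CR-L calls and 2 of the 5 CR calls were left, and no other member probe was called. Those lost in CR-L were Rbm7 (both probes), Rbm10 A_44_P540067, Rbm14, Rbm17, Srsf7, Srsf10 and Hnrnpdl A_44_P325962, and in CR Rbm4, Rbm17 and Rbm12 A_44_P763262. Leaving out any other array gave 13 (without WT replicate 5) to 25 probes in CR-L. In CR it gave 2 or 3 without WT replicate 2, 3, 4, 5 or 6 or CR replicate 3, 6 or 8, and up to 8 without CR replicate 9 or CR-L replicate 5 or 10. On the log2 red values of the authors' deposited table, 15 member probes passed in CR-L and 0 in CR. Those 15 are not all among the 20: Srsf11 A_44_P453337, both Rbm10 probes, Hnrnpdl A_44_P325962, Srsf10, Rbm14 and Srsf7 lost their calls there.

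The SR family had the lowest median of the 4 in both comparisons. Over its 15 probes the median difference was -0.11 on the log2 scale in CR-L and -0.08 in CR, with 11 of 15 below 0 each time. For SF3 the medians were -0.08 and -0.05 over 13 probes, for hnRNP -0.07 and -0.01 over 42, and for Rbm -0.02 and -0.01 over 52. The median over all probes tested was 0.01 in each. The Rbm family had probes at both ends: 7 rose and 5 fell in CR-L (23.1% of its probes). In the SR family 2 rose and 4 fell (40%). In the hnRNP family 2 fell (4.76%), a share near the 3.47% of all probes, and no SF3 probe passed.

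**Figure D1:**
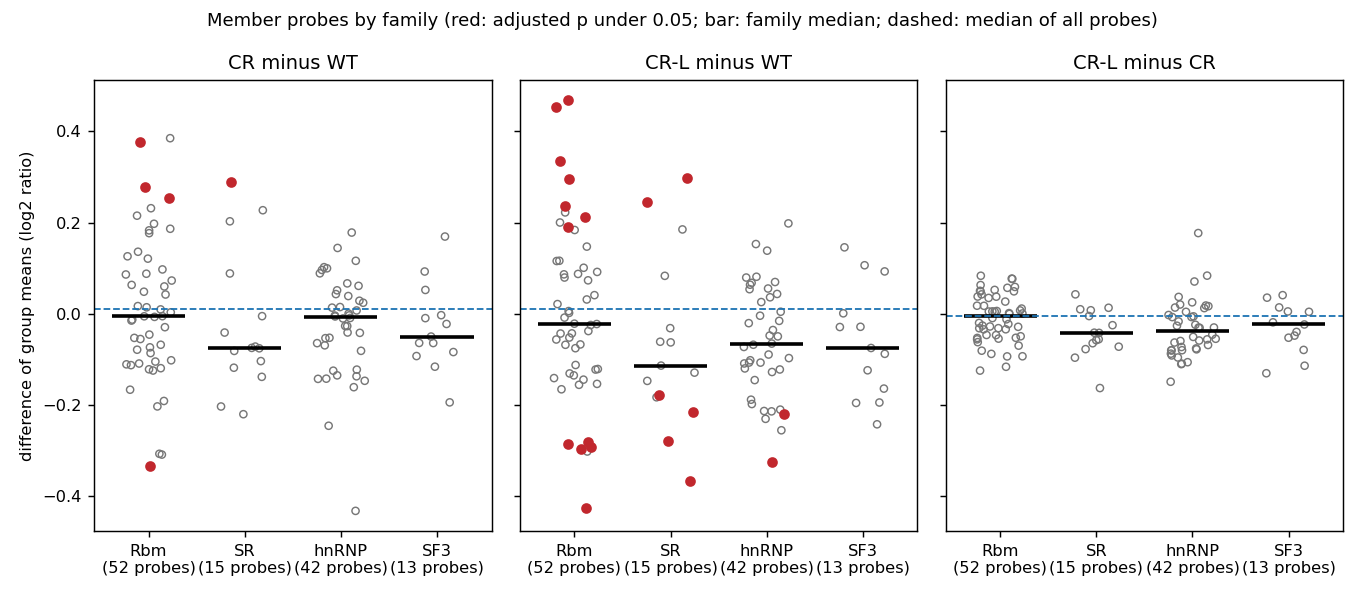
Difference of group means (log2 ratio, vertical axis) for each of the 122 member probes tested, by family, in the 3 comparisons. Filled red points have an adjusted p under 0.05, black bars are family medians and the dashed line is the median of all probes tested. Red points lie on both sides of 0 for Rbm and SR in CR-L minus WT, below 0 for hnRNP, and none is seen in CR-L minus CR.

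Among the Rbm genes, Rbm12, which codes for a protein with several RNA recognition motifs, moved furthest upward. For the probe A_44_P250203 (chr3:146504316-146504375, minus strand) the lowest, median and highest ratios were -0.38, -0.22 and -0.11 in WT, -0.08, 0.14 and 0.36 in CR, and -0.16, 0.25 and 0.44 in CR-L. Every CR value lay above every WT value, and 1 CR-L array reached into the WT range. Non-overlapping values of this kind, higher than WT, were seen for 2 member probes in CR and 0.116% of all probes. The difference from WT was 0.38 ± 0.07 (SE) in CR and 0.45 ± 0.07 in CR-L, with adjusted p of 0.0068 and 0.00043 in limma.

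The other Rbm12 probes gave the same picture. For A_44_P763262 the ratios were -0.34, -0.30 and 0.00 in WT, -0.21, 0.01 and 0.30 in CR and -0.06, 0.09 and 0.27 in CR-L. It rose by 0.28 ± 0.06 in CR (limma adjusted p 0.028) and 0.33 ± 0.06 in CR-L (0.0018). For A_44_P144015 they were -0.60, -0.27 and -0.22 in WT, -0.27, 0.01 and 0.36 in CR and -0.18, 0.14 and 0.65 in CR-L, so that no CR-L value reached down to WT. This is 1 of 2 member probes with CR-L wholly above WT, against 0.109% of all probes, and no member had CR-L wholly below WT (0.0673% of all). Its difference was 0.47 ± 0.10 in CR-L (limma adjusted p 0.0047), and 0.39 ± 0.10 in CR, which did not pass (0.060). Rbm12 overlaps Cpne1 in the reference annotation. The 2 Cpne1 probes tested differed by 0.09 ± 0.05 and 0.11 ± 0.11 in CR-L and did not pass.

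Rbm4 and Rbm14, for a splicing regulator and a nuclear co-activator, also had a probe that rose. The 2 genes overlap in the reference annotation, and Rbm14 also overlaps Rbm4b. Whether their probes read separate transcripts was not tested. For Rbm4 A_44_P221599 (chr1:207394369-207394428, minus strand) the ratios were -0.32, -0.18 and -0.11 in WT, -0.18, 0.04 and 0.25 in CR and -0.19, 0.09 and 0.38 in CR-L. WT lay below most of the other arrays, with some overlap. It rose by 0.25 ± 0.06 in CR (limma adjusted p 0.048, and 0.072 with slide as a fixed block) and 0.30 ± 0.06 in CR-L (0.0038). The other Rbm4 probe, A_43_P18752, differed by 0.12 ± 0.09 in CR-L, and 1 CR-L array lay at -0.88. Rbm14 A_44_P251673 rose by 0.24 ± 0.06 in CR-L, while its probes A_43_P20533 and A_44_P227089 differed by 0.09 ± 0.05 and -0.07 ± 0.06 and did not pass.

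Rbm10, a regulator of exon inclusion on the X chromosome, was higher in CR-L by 0.21 ± 0.05 at A_44_P540065 and 0.19 ± 0.05 at A_44_P540067, with limma adjusted p of 0.015 and 0.039. Both of its probes passed. They read neighbouring stretches of one transcript, from bases 2902 and 2808, and are no independent measurements.

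Of the Rbm genes that fell, Rbm39, a splicing factor related to U2AF that also serves as a co-activator, fell most. At A_44_P160113 the ratios were 0.13, 0.49 and 0.59 in WT, -0.05, 0.10 and 0.43 in CR and -0.32, 0.00 and 0.35 in CR-L. Of the 7 WT arrays, 5 lay above every CR and CR-L array. The difference was -0.43 ± 0.07 in CR-L (limma adjusted p 0.0016), and -0.31 ± 0.08 in CR, just short of the threshold (0.052). A_43_P10831 fell by 0.29 in CR-L, with an SE of 0.07 and an adjusted p of 0.022 in limma. The third probe, A_44_P136911, differed by -0.06 ± 0.06.

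Rbm17, which codes for a splice site factor also called SPF45, was the only member called lower in CR. At A_44_P368101 the means were 0.25 ± 0.19 in WT (SD, n = 7), -0.08 ± 0.10 in CR (n = 11) and -0.03 ± 0.17 in CR-L (n = 13). The differences were -0.33 ± 0.07 (SE) and -0.28 ± 0.07, with limma adjusted p of 0.033 and 0.023. With slide as a fixed block neither passed (0.059 and 0.054), nor did either with the cell lineage covariates or without WT replicate 2 or 6. Its other probe, A_43_P11313, was lower by 0.12 and 0.15 without passing. Rbm7, a part of the complex that brings nuclear transcripts to the exosome, fell in CR-L at both of its probes, by 0.30 ± 0.08 at A_44_P135883 and 0.29 ± 0.08 at A_43_P16525. Those 2 probes share 15 bases, in capitals in the last and first 30 bases of each, so they count as 1 reading.
Rbm7 A_44_P135883: gtcatatgttgggaaATTTGGTTCTCCACA
Rbm7 A_43_P16525: ATTTGGTTCTCCACAtgcagatcagttggg

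Among the SR genes, Srsf9, for a short SR protein that acts on splice site choice, rose in both groups. For its single probe A_44_P173048 (chr12:42546591-42546650, minus strand) the lowest, median and highest ratios were -0.25, -0.14 and -0.06 in WT, -0.04, 0.12 and 0.38 in CR and -0.03, 0.16 and 0.37 in CR-L. No CR or CR-L value reached down to WT. The differences of 0.29 ± 0.05 and 0.30 ± 0.05 had limma adjusted p of 0.0040 and 0.00084. In CR this was the smallest p of all members.

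Srsf3, Srsf5, Srsf7 and Srsf11 had probes that fell in CR-L. Srsf3 codes for the smallest SR protein, and its probe A_44_P1025013 had ratios of 0.08, 0.20 and 0.32 in WT, -0.17, 0.00 and 0.04 in CR and -0.62, -0.03 and 0.14 in CR-L. All CR values lay below WT, the only such member, against 0.0262% of all probes. The difference passed in CR-L (-0.28 ± 0.06, limma adjusted p 0.010) and not in CR (-0.22 ± 0.07, 0.11). Its other probe, A_44_P714409, differed by -0.18 ± 0.06 in CR-L (0.086).

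Srsf5, a gene known to respond to growth signals, fell at the probe listed with the non-coding transcript. At A_44_P251692 the ratios were 0.29, 0.51 and 0.61 in WT, -0.09, 0.28 and 0.49 in CR and -0.18, 0.07 and 0.57 in CR-L. The groups overlapped, with CR between the others. The difference from WT was -0.37 ± 0.08 in CR-L (limma adjusted p 0.0062) and -0.20 ± 0.08 in CR (0.28). At the probes listed with the messages the CR-L differences were -0.11 ± 0.07 (A_44_P515521) and -0.15 ± 0.07 (A_44_P346491), neither past the threshold.

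Srsf11, for an SR-related protein with an arginine and serine domain, fell by 0.22 ± 0.05 at A_44_P453337 in CR-L, and Srsf7, for an SR protein with a zinc knuckle, fell by 0.18 ± 0.05 at A_44_P253310. The other Srsf11 probe, A_44_P168569, spread too widely to tell (-0.03 ± 0.15). Srsf10, whose product represses splicing when dephosphorylated, rose at A_44_P808337 by 0.25 ± 0.06 (limma adjusted p 0.022), and differed by -0.06 ± 0.07 at A_44_P408011.

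The 2 hnRNP probes that passed in CR-L, of 42, were both lower and both of Hnrnpdl, for a protein related to hnRNP D that binds AU-rich RNA. For A_44_P158361 (chr14:10862779-10862838, plus strand) the ratios were -0.01, 0.20 and 0.30 in WT, -0.19, -0.05 and 0.08 in CR and -0.46, -0.18 and 0.09 in CR-L. All WT arrays except 1 lay above every CR and CR-L array. The probe differed by -0.33 ± 0.06 in CR-L (limma adjusted p 0.0023) and by -0.25 ± 0.06 in CR (0.060). A_44_P325962 fell by 0.22 ± 0.06 in CR-L (0.020). A_44_P916009, from base 28 of its transcript on, differed by -0.05 ± 0.16. Hnrnpdl overlaps Enoph1 on the opposite strand, and the 3 Enoph1 probes differed by 0.02, 0.09 and 0.14 without passing. Next in the family came Hnrnph1, a binder of G-rich RNA, at -0.21 ± 0.07 (A_44_P187144, limma adjusted p 0.092) and -0.15 ± 0.05 (A_44_P500923, 0.10).

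No SF3 probe passed in either group. Sf3b1, for the subunit that holds the branch point, differed by -0.24 ± 0.07 in CR-L at A_42_P619996 (limma adjusted p 0.060, and 0.011 with slide as a fixed block). Its other probes, A_43_P18423 and A_43_P15734, differed by -0.20 ± 0.09 and -0.08 ± 0.08. Sf3b3, for a scaffold of the same complex, lay the other way at 0.15 ± 0.04 (A_44_P457226, 0.060). At an unadjusted p under 0.05 the SF3 counts were 5 of 13 in CR-L and 2 of 13 in CR, beside 16.5% and 12.2% of all probes.

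**Figure D2:**
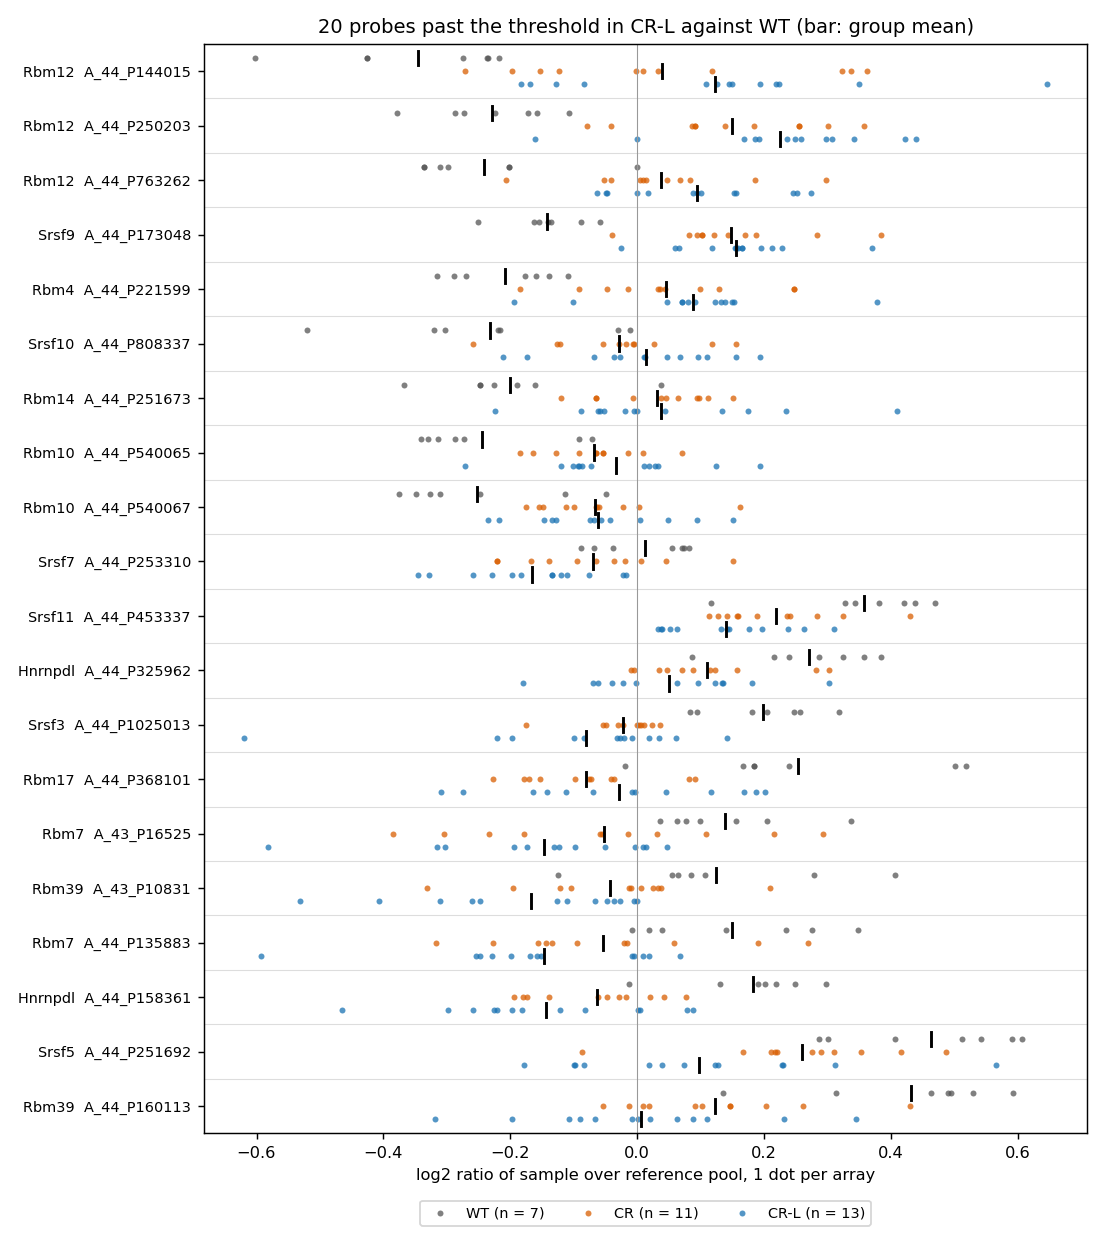
Log2 ratio of sample over reference pool (horizontal axis) on each of the 31 arrays for the 20 member probes past the threshold in CR-L against WT, sorted by the size of that difference, 1 dot per array and a bar at each group mean. The WT mean lies to the left of the others for the 9 probes at the top and to the right for the 11 below, and the CR mean lies on the same side of WT as the CR-L mean in all 20.

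The arrays came on 8 slides, of which 7 held 1 WT array each, so the groups could also be compared within a slide. For Srsf9, Rbm4 A_44_P221599 and all 3 Rbm12 probes, the mean of the CR arrays and that of the CR-L arrays lay above the WT array of their slide on 7 of 7 slides. The Rbm12 A_44_P250203 differences lay between 0.16 and 0.60 in CR and between 0.24 and 0.80 in CR-L. Hnrnpdl A_44_P158361 and Srsf3 A_44_P1025013 lay below it on 7 of 7 slides in both groups. Rbm39 A_44_P160113 did so on 7 of 7 slides in CR-L, from -0.62 to -0.18, and on 6 of 7 in CR, where slide 7 gave 0.21. Srsf5 A_44_P251692 lay above WT on 1 of 7 slides in each group. Both groups were set against the same WT array on each slide. These probes were picked because they passed in CR-L against WT on these same arrays. The slide counts therefore describe those calls and are no separate test, and the same count over all probes was not made.

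**Figure D3:**
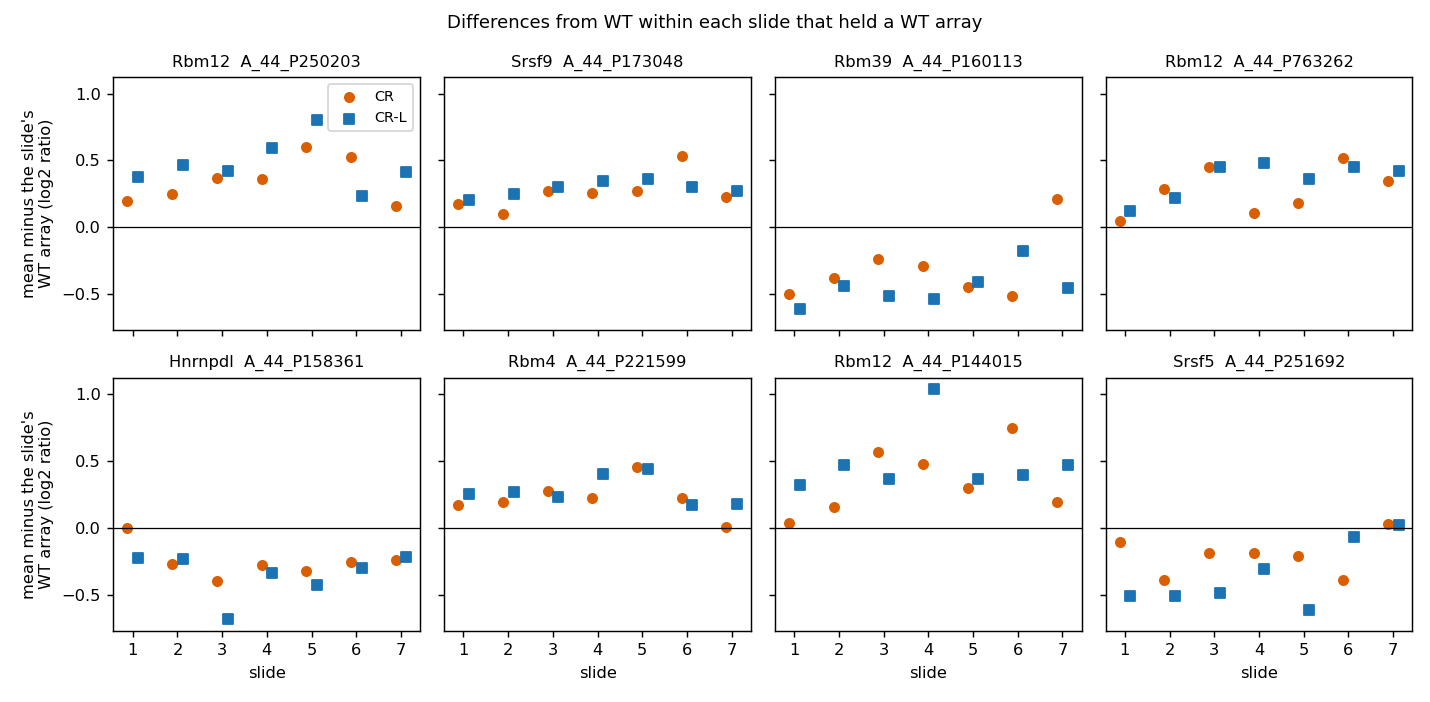
Mean log2 ratio of the CR arrays (circles) and of the CR-L arrays (squares) of a slide minus the WT array of that slide (vertical axis), for slides 1 to 7 (horizontal axis) and the 8 member probes with the smallest p in CR-L against WT. Points lie above 0 on every slide for Srsf9, Rbm4 and Rbm12, and below or at 0 for Hnrnpdl.

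Between CR-L and CR, which asks whether leptin in suckling changed these messages after the dam's restriction, no member probe passed, and no probe of the 26728 did (0%, limma). At an unadjusted p under 0.05 there were 3 of 122 members, beside 2.23% of all probes. These 3 were Srsf5 A_44_P251692 (-0.16 ± 0.07), Hnrnpul2 A_44_P318794 (-0.11 ± 0.05) and Srsf7 A_44_P253310 (-0.10 ± 0.04). For Hnrnpul2, a relative of Hnrnpu, the ratios were -0.16, -0.03 and 0.10 in WT, -0.30, -0.03 and 0.19 in CR and -0.31, -0.16 and 0.00 in CR-L, which overlap throughout. The leading probes of the other families were Rbm39 A_43_P10831 (-0.12 ± 0.06) and Rbm25 A_44_P553347 (-0.09 ± 0.05), Hnrnph1 A_44_P500923 (-0.08 ± 0.04), and Sf3b1 A_43_P18423 (-0.13 ± 0.08) and Sf3b2 A_43_P10264 (-0.11 ± 0.09). Rbm25 codes for a splicing regulator, and the other 3 probes of that name differed by -0.07, -0.06 and -0.03. RefSeq records listed for A_44_P553347, A_44_P1037217 and A_44_P645135 belong to Rbm25l1, and which gene these probes read was not tested. The median standard error of a member in this comparison was 0.06, and the widest difference was 0.18. The 2 groups' differences from WT are compared by this same test, so a probe called in CR-L and not in CR is not shown to differ between them.

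Whether probes of 1 gene moved unequally was tested directly, as the ratio of the gene's brightest probe minus that of each other probe. Of 55 member pairs, 5 passed in CR-L (9.09%), against 3.68% of all 4863 pairs, and 1 in CR (1.82%), against 0.761%. No pair passed between CR-L and CR (0% of all pairs, limma), where 1 of 55 had an unadjusted p under 0.05, beside 2.2% of all pairs. The count in CR-L was 2 without WT replicate 4, 3 without WT replicate 1, 2, 3, 5 or 6, and up to 7. The pair in CR was lost in 13 of 31 fits that left out an array: WT replicates 1, 2, 4, 5 and 6, CR replicates 2, 3, 4, 5, 7, 8 and 11, and CR-L replicate 8.

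The clearest pair was in Rbm39. A_44_P160113 minus A_44_P136911 had lowest, median and highest values of 0.47, 0.51 and 0.71 in WT, 0.01, 0.25 and 0.45 in CR and 0.01, 0.15 and 0.55 in CR-L. CR and WT did not overlap, and how many of all pairs did likewise was not counted. The pair differed from WT by -0.37 ± 0.07 in CR-L (limma adjusted p 0.0026) and by -0.30 ± 0.07 in CR (0.045, and 0.079 with slide as a fixed block). The other Rbm39 pair, A_44_P160113 minus A_43_P10831, differed by -0.13 ± 0.10 in CR-L (limma adjusted p 0.56) and -0.14 ± 0.10 in CR (0.66). Both A_43_P10831, which also fell in CR-L, and A_44_P136911, which did not pass, are listed with the curated message.

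In Rbm5, for a regulator of exon choice in apoptosis genes, neither probe passed alone. A_42_P479312 differed by 0.20 ± 0.06 and A_44_P449108 by -0.12 ± 0.07 in CR-L. Their pair values were -0.69, -0.50 and -0.23 in WT, -0.38, -0.24 and 0.09 in CR, and -0.37, -0.15 and 0.04 in CR-L. The pair differed from WT by 0.32 ± 0.07 (limma adjusted p 0.0051) in CR-L. Srsf5 A_44_P515521 minus A_44_P251692 differed by 0.25 ± 0.06 (0.020). It lay above WT on 7 of 7 slides, a count on the same arrays that gave the call.

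The other pairs were closer to the threshold. Hnrnpf A_44_P540637 minus A_44_P177801 differed by 0.30 ± 0.08 in CR-L (limma adjusted p 0.036), from -0.19 ± 0.18 in WT (SD, n = 7) to 0.10 ± 0.20 (n = 13). Hnrnpf codes for a G-rich RNA binder, and neither of its probes passed alone (0.08 ± 0.04 and -0.21 ± 0.08). Srsf10 A_44_P408011 minus A_44_P808337 differed by -0.31 ± 0.09 (0.044, and 0.051 with slide as a fixed block). The Srsf10 pair lost its call in 14 of 31 fits that left out 1 array and in 6 of 13 other alternatives. The Hnrnpf pair lost its call in 9 of 31 and in 1 of 13.

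**Figure D4:**
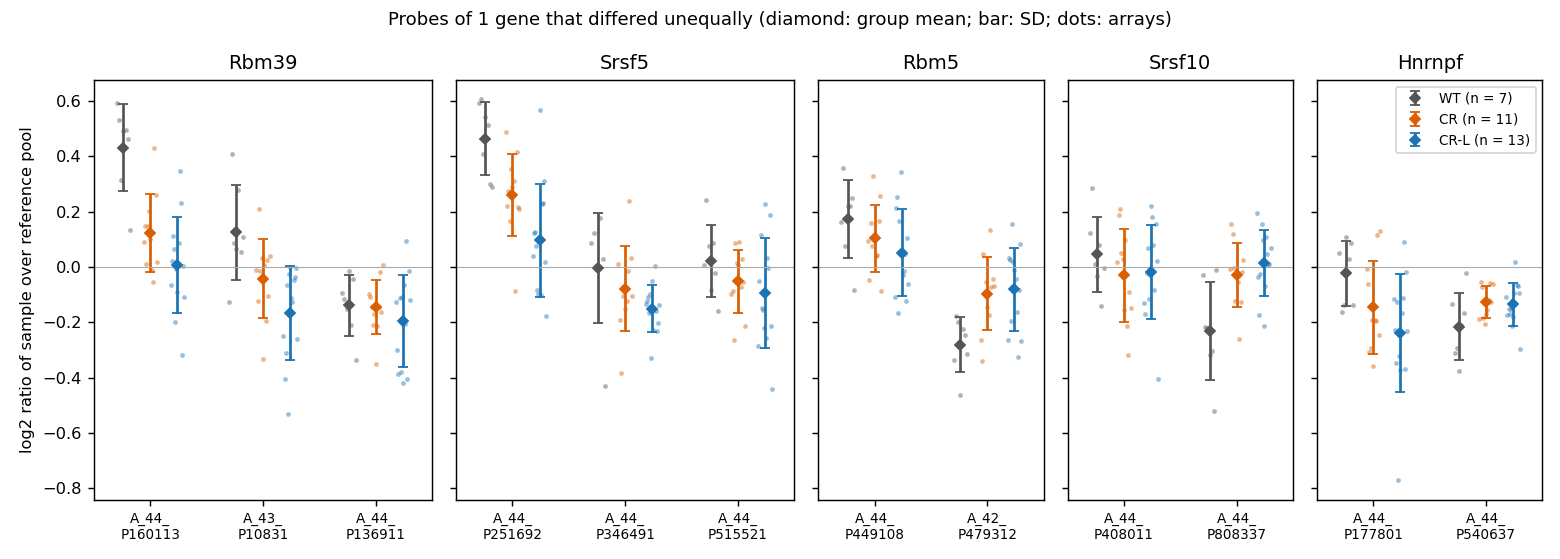
Log2 ratio of sample over reference pool (vertical axis) for the probes of Rbm39, Srsf5, Rbm5, Srsf10 and Hnrnpf, with a dot per array and a diamond with a bar for the group mean and SD (WT n = 7, CR n = 11, CR-L n = 13). Within each gene 1 probe separates the WT and CR-L means more than the others do, and in Rbm5, Srsf10 and Hnrnpf the means lean in opposite directions.

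Other genes of the splicing machinery were counted from lists of their own. Of 76 probes of the spliceosome core, 1 rose and 1 fell in CR-L (2.63%, beside 3.47% of all probes). None passed in CR (limma), where 10 had an unadjusted p under 0.05 (13.2%, beside 12.2%). These shares are near those of all probes. Those of CR-L were Prpf4b, for a kinase of the spliceosome, at 0.24 ± 0.06, and Prpf38a, for a protein of its activation, at -0.23 ± 0.06. Of 105 probes of splicing regulators outside the 4 families, 2 rose and 2 fell in CR-L (3.81%, also near that of all probes). Fubp1 (0.27 ± 0.05) and Scaf4 (0.32 ± 0.08) rose, and Son (-0.37 ± 0.08) and Srek1 (-0.23 ± 0.06) fell, of which Son and Srek1 code for splicing proteins rich in arginine and serine. Fubp1 alone also passed in CR, at 0.23 ± 0.05. The median differences of these lists in CR-L were -0.02 and -0.04.

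Among 23 probes of kinases and importers of SR proteins 3 passed in CR-L (13%, beside 3.47% of all probes) and 0 in CR. In CR 4 had an unadjusted p under 0.05 in limma (17.4%, beside 12.2%). Clk1, for a kinase that phosphorylates SR proteins, fell by 0.26 ± 0.05 in CR-L (limma adjusted p 0.0042). Dyrk1a, for a related kinase, rose by 0.17 ± 0.04 (0.0086), and Prpf4b is on this list as well. Of 20 probes of the exon junction complex and nonsense-mediated decay, Ncbp1, for the large subunit of the nuclear cap-binding complex, rose in CR (0.23 ± 0.04) and CR-L (0.24 ± 0.04), and no other passed (5% in each group, beside 0.479% and 3.47% of all probes). Heat shock chaperones, induced by a stress that also disturbs splicing, were counted too: 25 of 30 probes were above 0 in each group, with medians of 0.24 in CR and 0.22 in CR-L. Of all 26728 probes, 14774 lay above 0 in CR and 14482 in CR-L. At an unadjusted p under 0.05 in limma there were 14 chaperone probes in CR (46.7%, beside 12.2% of all probes) and 11 in CR-L (36.7%, beside 16.5%). Of the 30 chaperone probes, 1 passed in CR (3.33%, beside 0.479% of all probes) and 4 in CR-L (13.3%, beside 3.47%), each of them higher. Among them were Hspa4 (0.50 ± 0.10 and 0.40 ± 0.10) and Dnaja1.

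Markers of blood cell types were read on the same arrays. In CR-L against WT the median difference was -0.26 over 15 B cell probes, -0.21 over 12 granulocyte probes, -0.08 over 13 monocyte probes, 0.04 over 19 T cell probes, 0.10 over 11 NK probes and 0.01 over 12 platelet probes. None of these passed in limma. At an unadjusted p under 0.05 there were 5 B cell, 6 T cell, 1 granulocyte and 1 NK probe, and 0 of the others. These were 33.3%, 31.6%, 8.33% and 9.09% of their lists, beside 16.5% of all probes. Over 13 erythroid probes it was 0.24, with 13 of 13 above 0 and 1 that passed (Gypc, 7.69%, beside 3.47% of all probes). In CR against WT no marker probe passed (limma). The medians there were 0.44 for platelet (12 of 12 above 0), 0.10 for T cell (16 of 19 above) and 0.06 for NK probes (9 of 11 above). They were -0.31 for granulocyte (11 of 12 below 0), -0.16 for erythroid (9 of 13 below), -0.15 for B cell (13 of 15 below) and -0.14 for monocyte probes (11 of 13 below). At an unadjusted p under 0.05 there were 5 T cell, 2 erythroid, 1 B cell and 1 granulocyte probe in CR, and 0 of the others. These were 26.3%, 15.4%, 6.67% and 8.33% of their lists, beside 12.2% of all probes. Between CR-L and CR the medians were 0.62 for erythroid (11 of 13 above 0), -0.38 for platelet (12 of 12 below) and between -0.10 and 0.09 for the other lists. There 3 of 13 erythroid probes had an unadjusted p under 0.05 in limma (23.1%, beside 2.23% of all probes), and 0 of the other lists. The mean erythroid ratio ranged from -0.91 to -0.01 over WT arrays, from -1.43 to 0.74 over CR and from -1.77 to 1.19 over CR-L. With the means of the T cell, B cell, monocyte and granulocyte lists as covariates, 20 member probes passed in CR-L and 3 in CR. These 20 are not the same probes as without covariates: Rbm17 A_44_P368101 and Rbm7 A_43_P16525 lost their CR-L calls. The part of erythroid and platelet RNA in the member differences was not tested.

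The probe with the smallest p against WT, Rbm12 A_44_P250203, was set against each of the 119 member probes of other genes over the 31 arrays. The 5 most alike were Rbm4 A_44_P221599, Srsf9 A_44_P173048, Rbm10 A_44_P540067 and A_44_P540065, and Rbm5 A_42_P479312, with Pearson r of 0.89, 0.88, 0.78, 0.77 and 0.69. Spearman rho was 0.85, 0.83, 0.69, 0.68 and 0.67. Rbm12 was chosen for its difference from WT and these probes for their likeness, and 4 of the 5 were themselves called against WT in CR-L, so these values are a description with no test.

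Since WT arrays lay low for these probes, the relation was also read with the group difference removed. With each group's mean taken out, r fell to 0.76 for Rbm4, 0.68 for Srsf9, 0.63 and 0.56 for Rbm10 and 0.51 for Rbm5. Within groups, r for Rbm4 was 0.93 in WT, 0.88 in CR and 0.65 in CR-L. For Srsf9 it was 0.47, 0.66 and 0.75, and for Rbm5 -0.20, 0.50 and 0.66. With slide means taken out in place of group means, which leaves the group difference in, r was from 0.73 to 0.92 over the 5. Without the 2 arrays farthest from the Rbm12 median, WT replicates 2 and 5, the 5 values of r lay between 0.71 and 0.85. All arrays share the reference pool.

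**Figure D5:**
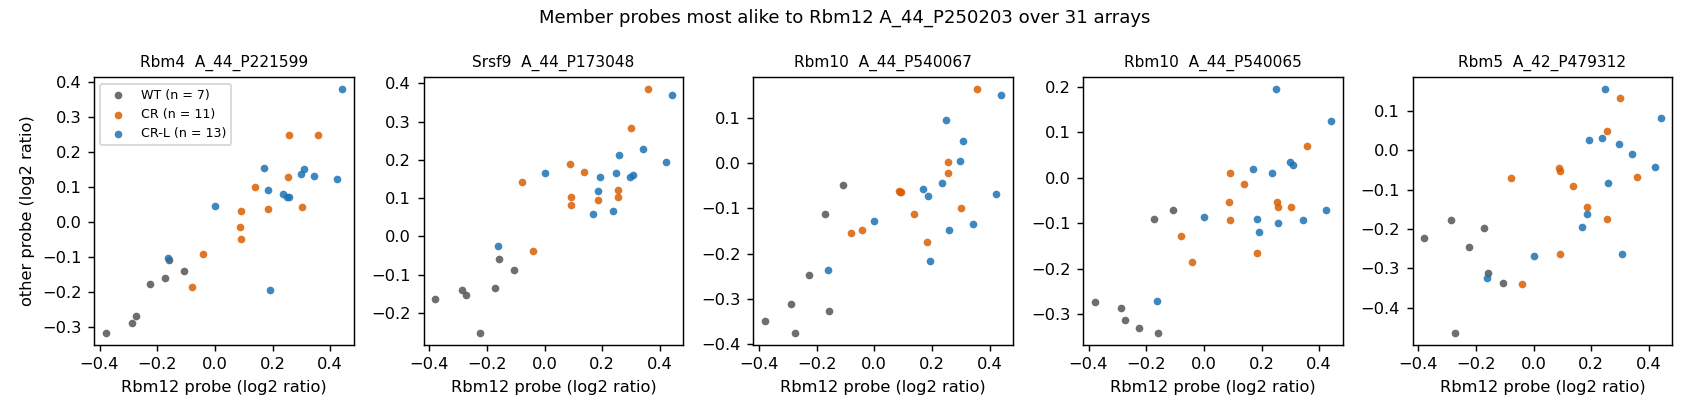
Log2 ratio of Rbm12 A_44_P250203 (horizontal axis) against that of the 5 member probes of other genes most alike to it (vertical axes), 1 dot per array, coloured by group (WT n = 7, CR n = 11, CR-L n = 13). The WT arrays lie at the lower left, and within the groups the dots of Rbm4 and Srsf9 still rise with Rbm12.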

How the data were processed

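The authors deposited 1 scanner file per array with spot intensity and background intensity, and a log10 ratio of red over green, per the file headers, and the submitters' processing notes name the program as Agilent Feature Extraction 10.7.3.1. Their deposited table of the series holds log2 values that followed the log2 red signal (lowest correlation 0.993). What was done to them is not given in the sources used here. Per the labels, red held an individual sample and green an equimolar pool, with no dye swap.

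Intensities were corrected by normexp with an offset of 50, normalized by loess within each array and averaged over spots of a probe in limma (version 3.58.1, R 4.3.3). Of 45018 spots per array, 1639 control spots and 0.408% of values flagged as outliers were left out. A probe was tested, as its own feature, where 7 or more of the 31 arrays had it well above background in red. All 31 arrays entered 1 fit, with Benjamini-Hochberg adjustment over 26728 probes, or over 4863 probe pairs, two-sided, at a threshold of 0.05. Differences carry their SE. The labels do not say that samples of a group are separate animals, and p-values measure the spread between these samples.

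On simulated data with changes in 200 of 26728 probes, 49.3% of log2 changes of 0.25 and 91% of 0.5 were recovered for CR against WT, and 59.7% and 92.5% for CR-L against WT. Unchanged probes gave 10 and 16 calls. The simulated noise was independent between probes and between arrays and all changes were upward, so recovery on the real arrays may differ. Of the member probes, 110 had an accession that RefSeq lists for GRCr8, a build used only for gene symbols and neighbours. The probe sequences come from the scanner files.

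Members, gene lists and tests were chosen with earlier results of these data known. Named were all member probes and pairs past the threshold, the other probes of those genes, the leading probes of each family and list, and the 5 probes most alike to the leading one. Alternatives changed the background, the normalization, the filter, the probes per gene, the blocks, the covariates, the weights and the arrays.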

Additional observations from a re-analysis of the deposited data

Results flagged for a closer look

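Dixon's test for a value that stands apart was applied to the WT arrays for 32 sets of values, since CR and CR-L hold more than 10 arrays each. The sets were those of named probes and called pairs, and other members were not checked. Among those others, Hnrnpa2b1 A_44_P201603 was -1.56 in WT replicate 7, and between -0.14 and 0.13 on the other WT arrays. Hnrnpa3 A_44_P744814 was -1.09 there, and between -0.04 and 0.14 on the others. Neither probe was called. Chance marks about 1 in 20 of the sets checked, and 3 were found. Sf3b2 A_43_P10264, for a subunit of the branch point complex, was -0.52 in WT replicate 7, and between -0.05 and 0.14 on the other WT arrays. Srsf11 A_44_P453337 was 0.12 in WT replicate 7, and between 0.33 and 0.47 on the others. This probe was called lower in CR-L, and it kept that call without any single array. Rbm12 A_44_P763262 was -0.00033 in WT replicate 1, and between -0.34 and -0.20 on the others.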

How the results depend on the processing

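All 2042 values of named probes and pairs under the alternatives kept their direction, while their sizes changed with the processing. Over the alternatives that kept all arrays, the CR-L difference ran from 0.29 to 0.79 for Rbm12 A_44_P763262 (0.33 in the main fit). It ran from 0.17 to 0.42 for Rbm10 A_44_P540067 (0.19) and from 0.44 to 0.49 for Rbm12 A_44_P250203 (0.45). Of the 20 probes called in CR-L against WT, 8 kept the call under every alternative that gave them a value and without each array: the 3 Rbm12 probes, Srsf9, Rbm39 A_44_P160113, Hnrnpdl A_44_P158361, Srsf5 A_44_P251692 and Srsf3 A_44_P1025013. The Rbm39 and Rbm5 pairs did so too. None of the 5 CR calls did. Probes called in CR against WT numbered 0 on the authors' table, 3 on the red channel alone, with 1 probe per gene name or with cell lineage covariates, 8 with no background correction or with probes above background on all arrays, and 10 with array weights or with the replicate number as a block. In CR-L the count was 9 with 1 probe per gene name, which keeps the brightest probe of each. For Hnrnpdl, Srsf5, Srsf10, Rbm17 and Rbm14 the brightest probe was not called in CR-L. Of the 8 probes above, Hnrnpdl A_44_P158361, Srsf5 A_44_P251692 and Rbm12 A_44_P763262 and A_44_P144015 had no value in that fit. Pairs called in CR numbered 0 on the Feature Extraction log ratio, on the red channel, with no filter, with slide as a fixed block, with the replicate block and with lineage covariates, and 4 with array weights. With the replicate block 21 probes and 4 pairs passed in CR-L, not all of them the same as in the main fit. Srsf10, Rbm39 A_43_P10831, Rbm17, Rbm14 and Rbm10 A_44_P540067 lost their calls there, as did the Srsf5 and Srsf10 pairs. Deviations of same-numbered samples of different groups correlated at a median of 0.0477, from -0.433 to 0.435, over 25 pairs. The median was -0.00889 over 286 pairs with different numbers and 0.025 over 37 pairs from the same slide. As samples known to share a slide also barely correlated, these values cannot show whether the numbers pair the samples. CR-L against CR gave 0 throughout. The causes were not tested.

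Leaving out 1 array gave 2 to 8 probes in CR: 2 without WT replicate 2, 4 or 6 or CR replicate 3 or 8, 3 without WT replicate 3 or 5 or CR replicate 6, and 8 without CR replicate 9 or CR-L replicate 5 or 10. In CR-L it gave 12 (without WT replicate 6) to 25, with 13 without WT replicate 5. Of the CR-L calls, 11 held without each array. Hnrnpdl A_44_P325962, Srsf10, Rbm39 A_43_P10831, Rbm17, Rbm7 A_44_P135883 and Rbm14 lost it without 2 to 4 arrays, all of them WT, and Rbm10 A_44_P540067, Srsf7 and Rbm7 A_43_P16525 without 10 to 14 arrays of WT or CR-L. Pairs ranged from 0 (13 arrays) to 2 (without WT replicate 7) in CR. In CR-L they ranged from 2 (without WT replicate 4) to 7 (without WT replicate 7), with 3 without WT replicates 1, 2, 3, 5 or 6. With 7 WT arrays the precision of every difference from WT is limited by that group, and changes near 0.25 can be missed.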
